A study of Homo sapiens with 12 samples.

Results

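The genes described here encode inhibitors that limit signalling through the mitogen-activated protein (MAP) kinases: the dual-specificity phosphatases DUSP1, DUSP4, DUSP5, DUSP6 and DUSP10, the Sprouty proteins SPRY1, SPRY2 and SPRY4, and the Sprouty-related proteins SPRED1 and SPRED2. They were taken by name as a set of 10 genes out of 19775 genes that the array annotation pairs with probe sets, through all 22 probe sets that it maps to exactly 1 of them under a current or former symbol. Messenger RNA had been measured on 12 oligonucleotide arrays in HK-2, an immortalised cell line from human kidney proximal tubule, grown in medium that contained epidermal growth factor (EGF), a ligand that switches on the extracellular signal-regulated kinase (ERK) pathway. The 4 groups held 3 arrays each: cells given a low dose of a compound labelled Aa for 24 h or for 48 h, and cells given its control vehicle for the same times. Every group, the controls included, thus shares 1 immortalised line and EGF in the medium. What the abbreviation Aa stands for, its numeric dose and the nature of the vehicle were not found in the labels. Replicates are labelled biological with no word on separate cultures, and the p-values reflect the spread between these arrays alone, which may be technical.

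A growth factor receptor activates RAS, which drives the kinases RAF, MEK and ERK in turn, and active ERK raises the transcription of its own inhibitors. Sprouty and SPRED proteins act high in this chain, at the receptor and at RAS, and SPRED1 brings the RAS inhibitor neurofibromin to the membrane. The phosphatases act at its end, removing phosphate from the MAP kinases themselves: DUSP6 in the cytoplasm and DUSP5 in the nucleus act chiefly on ERK, DUSP1 and DUSP4 are nuclear enzymes with a wider choice of substrates, and DUSP10 acts mainly on the stress kinases JNK and p38. In kidney epithelium the pathway responds to EGF and to injury.

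The 4 genes that changed with Aa at either time are shown first by the 250 bases before their transcription start, read from the RefSeq promoter table on the GRCh38.p14 build. The stretches are those at the 5′ end of each gene: DUSP1 at chr5:172771196-172771445 (minus strand), DUSP10 at chr1:221742090-221742339 (minus strand), SPRY2 at chr13:80341127-80341376 (minus strand) and SPRED1 at chr15:38252586-38252835 (plus strand). Capitals mark matches on either strand to 4 sets of letters: the cyclic AMP response element (CRE) TGACGTCA, its shorter core TGACG, the AP-1 site TGANTCA and the ETS core CCGGAA. Every full CRE also holds the shorter core on both strands.
DUSP1: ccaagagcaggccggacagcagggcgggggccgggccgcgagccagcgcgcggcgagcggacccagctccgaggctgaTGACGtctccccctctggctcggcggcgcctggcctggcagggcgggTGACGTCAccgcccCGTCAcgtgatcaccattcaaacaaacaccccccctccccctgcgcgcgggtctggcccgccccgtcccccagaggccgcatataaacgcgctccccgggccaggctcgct
DUSP10: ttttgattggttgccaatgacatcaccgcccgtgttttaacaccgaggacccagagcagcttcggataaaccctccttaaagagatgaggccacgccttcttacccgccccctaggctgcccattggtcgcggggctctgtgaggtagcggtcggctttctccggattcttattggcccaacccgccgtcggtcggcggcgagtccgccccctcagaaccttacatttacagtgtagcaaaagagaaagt
SPRY2: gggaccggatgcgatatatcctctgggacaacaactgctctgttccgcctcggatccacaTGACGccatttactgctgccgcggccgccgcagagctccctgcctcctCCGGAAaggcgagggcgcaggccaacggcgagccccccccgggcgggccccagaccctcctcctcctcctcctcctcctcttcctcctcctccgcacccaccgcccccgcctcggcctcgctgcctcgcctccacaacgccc
SPRED1: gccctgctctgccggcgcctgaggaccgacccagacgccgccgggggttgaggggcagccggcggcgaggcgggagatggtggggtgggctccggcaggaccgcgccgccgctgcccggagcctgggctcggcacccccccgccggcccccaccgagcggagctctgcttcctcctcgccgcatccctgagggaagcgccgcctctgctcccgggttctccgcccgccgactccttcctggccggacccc
The DUSP1 stretch held 1 full CRE, which began 125 bases before the start, and 4 matches to the shorter core, 2 of them within that CRE. A full CRE was present in 1.65% of 35114 stretches of this length in the table, and the shorter core in 21.2%. SPRY2 had 1 match to the shorter core and 1 to the ETS core, which 14.5% of the stretches held. DUSP10 and SPRED1 had none of the 4, and the AP-1 letters, in 6.57% of all stretches, were in none of the 4 genes shown. The windows of DUSP6, SPRY1 and SPRED2, genes that were not called, had none of the 4 sets of letters either. Only 1 window per gene was read, though the table lists 2 starts for DUSP10 and 3 for SPRY2. These matches describe the letters in these windows only, and a link to the direction of change was not tested.

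Values are log2 intensities as deposited. A gene was tested where a probe set had a mean of at least 4 over all 12 arrays, and it was represented by its brightest one. Of the 22 probe sets 15 passed, and 9 of the 10 genes were tested among 10791. DUSP4 was not: its 3 probe sets read between 2.16 and 2.58 on all 12 arrays, far below the filter, so this array gave no usable level for it in any group. Changes are differences between group means with the standard error (SE) of a limma model over all 12 arrays, and "rose" and "fell" are used where the Benjamini-Hochberg adjusted p over all genes tested was under 0.05. Since levels of different probe sets are not comparable, no gene is set against another by level. In whole cultures, fewer cells that express a gene and less of its RNA per cell cannot be told apart.

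The arrays resembled each other, with Pearson's r across probe sets of 0.994 to 0.997 within groups. Probe sets for 28S ribosomal RNA were higher in the Aa groups, reading 6.30 to 6.45 and 6.60 to 6.91 in the controls of 24 h and 48 h and 7.03 to 7.44 and 7.30 to 7.80 with Aa, and their part in the results was not tested. Of 9 general renal epithelial markers measured, 8 passed the filter, among them PAX8 and CDH6, but of 9 markers of mature proximal tubule 1 did, and LRP2, CUBN and AQP1 read 2.09 to 2.79. The fibroblast-associated genes COL1A1, DCN and LUM were measured, 3 of 6 on their list, while COL1A2 and COL3A1 stayed below 3, as means over all arrays. None of 5 endothelial and 4 leukocyte markers passed.

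**Figure D1:**
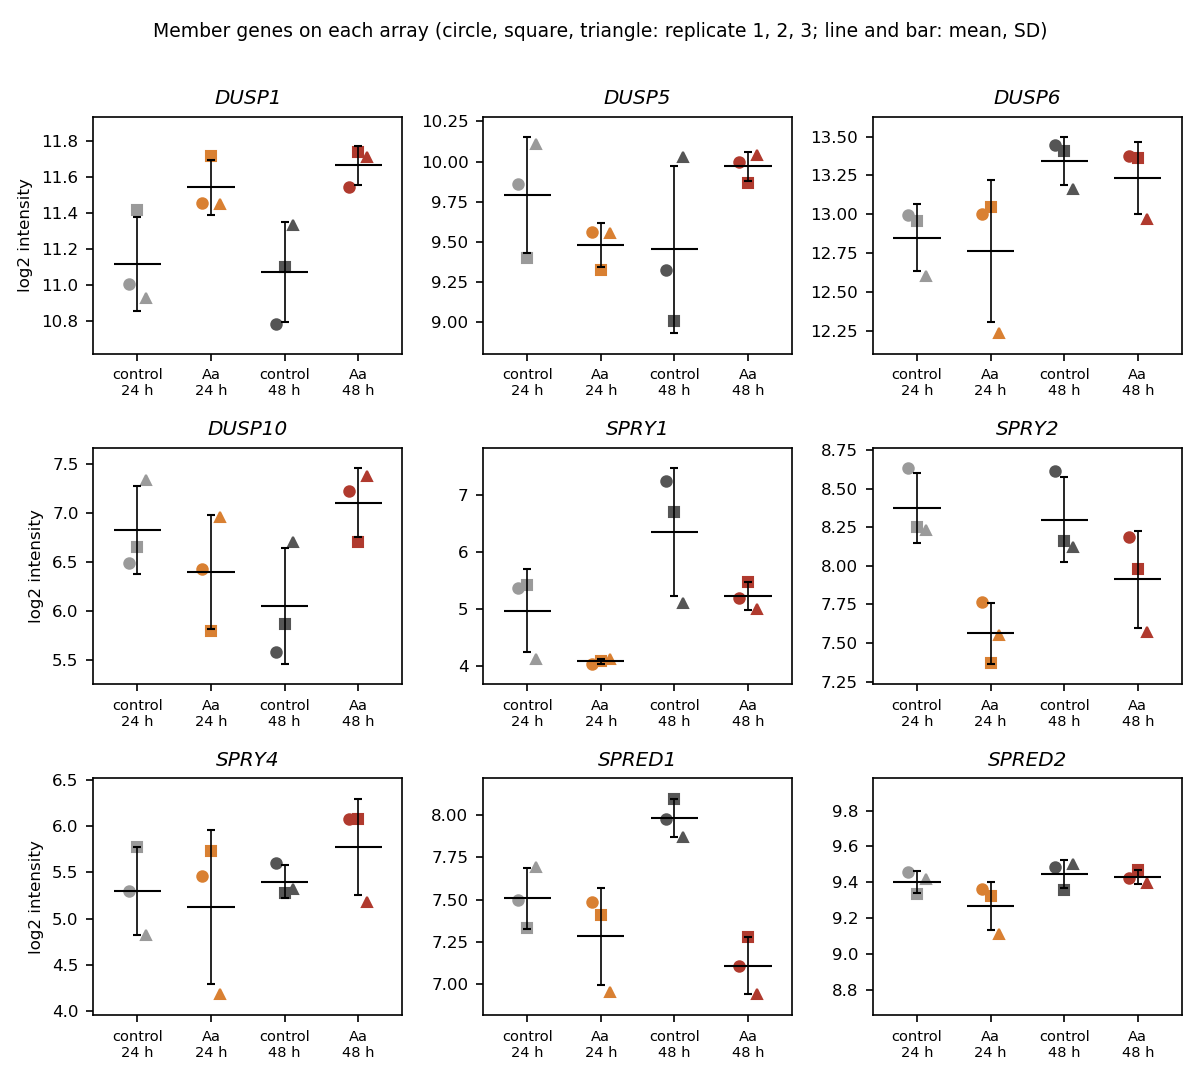
Log2 intensity of the 9 member genes tested (vertical axes, 1 panel a gene with its own range) on each of the 12 arrays, by group. Symbols mark the replicate number, horizontal lines the group mean and bars the SD of 3 arrays. In the panels of DUSP1 at both times, SPRY2 at 24 h and SPRED1 at 48 h the Aa and control arrays do not overlap.

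After 24 h with Aa, SPRY2 was the only member called, and it fell. After 48 h DUSP1 and DUSP10 rose and SPRED1 fell. The counts were 1 of 9 member genes at 24 h, where 23.1% of all genes tested were called (10.3% up, 12.8% down), and 3 of 9 at 48 h, where 37.8% were (17.8% up, 20.1% down). The members' shares, 11.1% and 33.3%, were no higher than these backgrounds. The Aa and control arrays did not overlap in 2 of the 9 genes at each time, DUSP1 and SPRY2 at 24 h and DUSP1 and SPRED1 at 48 h, against 40.5% and 48.4% of all genes. Their median change was -0.23 at 24 h and -0.02 at 48 h, against -0.02 and 0.00 over all genes, and their median size of change 0.31 and 0.52, against 0.24 and 0.32. The replicate number, which the data show to act as a pairing, changed these counts when it entered the model as a block: 2 of 9 genes were then called at 24 h (1 up, 1 down, against 41.3% of all genes) and 6 of 9 at 48 h (3 up, 3 down, against 54.8%).

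**Figure D2:**
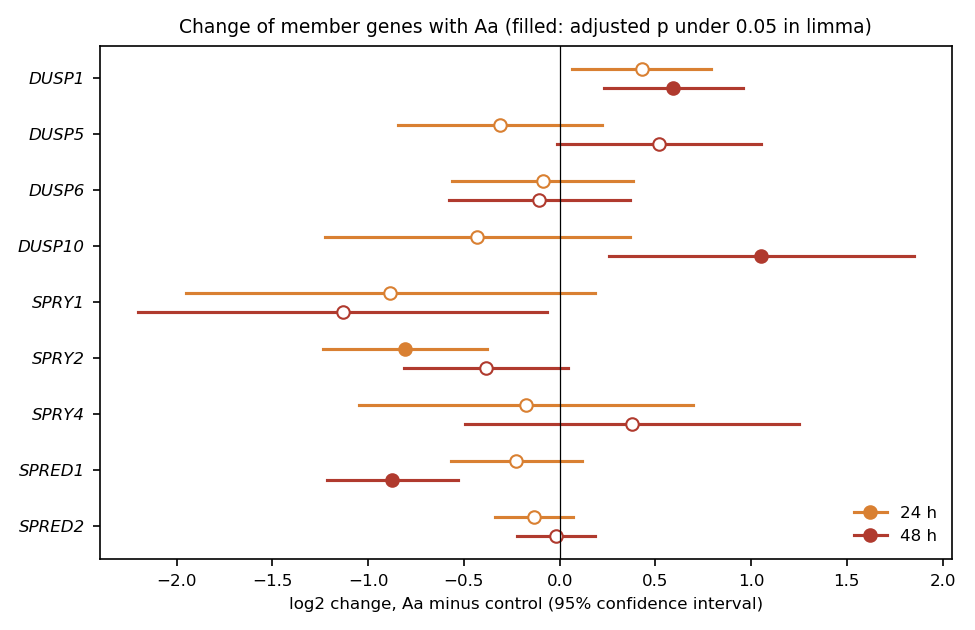
Log2 change with Aa (horizontal axis, Aa minus control) of the 9 member genes at 24 h and 48 h, with the 95% confidence interval of the limma model, and filled points where the adjusted p was under 0.05. The filled points are SPRY2 at 24 h on the low side and, at 48 h, SPRED1 on the low side and DUSP1 and DUSP10 on the high side.

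Among the phosphatases, DUSP1, an early response gene whose product acts on p38, JNK and ERK, read 11.00, 11.42 and 10.93 in the 24 h controls and 11.46, 11.72 and 11.45 with Aa. At 48 h the controls read 10.78, 11.10 and 11.33 and the Aa arrays 11.54, 11.74 and 11.72. Every Aa array was above every control array of its time, the nearest at 24 h reading 11.42 and 11.45. The difference was 0.43 at 24 h (SE 0.17, 1.35-fold), which missed the threshold (adjusted p = 0.087 in limma), and 0.59 at 48 h (SE 0.17, 1.51-fold), which passed it (adjusted p = 0.0168). With the replicate block the 24 h difference passed too (adjusted p = 0.0276 in limma), as it did after quantile normalisation (0.0485) and without the 24 h control of replicate 2 (change 0.58, 0.0349). The DUSP1 probe set 201044_x_at gave smaller differences, -0.05 (SE 0.20) at 24 h and 0.18 (SE 0.20) at 48 h, neither of them called (adjusted p = 0.88 and 0.524 in limma over all probe sets), and its other probe set, 226578_s_at, read between 2.14 and 2.34. With the mean of the probe sets past the filter the 48 h change was 0.39 (adjusted p = 0.106 in limma). The call was also lost without the Aa array of replicate 3 at 48 h (change 0.57, adjusted p = 0.0525) or the control array of replicate 1 at 48 h (change 0.45, adjusted p = 0.0635), and without all arrays of replicate 1 (0.51, 0.132) or 2 (0.57, 0.0571).

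DUSP10, the phosphatase of the stress kinases, rose at 48 h. On its probe set 215501_s_at the 24 h controls read 6.49, 6.65 and 7.34 and the Aa arrays 6.43, 5.80 and 6.96. At 48 h the controls read 5.58, 5.87 and 6.71 and the Aa arrays 7.23, 6.71 and 7.38. The 48 h groups overlapped slightly, since the highest control lay just above the lowest Aa array (both 6.71 at 2 decimals), and at 24 h they overlapped widely. The change was -0.43 at 24 h (SE 0.36, adjusted p = 0.434 in limma) and 1.05 at 48 h (SE 0.36, 2.07-fold, adjusted p = 0.0403). Its other probe set, 221563_at, gave -0.11 (SE 0.32, adjusted p = 0.842 in limma over all probe sets) and 1.16 (SE 0.32, adjusted p = 0.0173), with no overlap at 48 h. All 6 differences between arrays of the same replicate number were positive at 48 h on the 2 probe sets, from 0.67 to 1.78. The 48 h mean was 6.05 ± 0.59 (SD, n = 3) in controls, below the 6.83 ± 0.45 of the 24 h controls, and 7.10 ± 0.35 with Aa, above the 6.40 ± 0.58 of 24 h.
The 48 h call for DUSP10 was not stable. It was lost in 9 of 24 alternative settings, with adjusted p up to 0.331 in limma. Leaving out single arrays ended it in 6 cases: the 48 h Aa array of replicate 1 (change 0.99, adjusted p = 0.108) or 3 (0.92, 0.125), the 48 h control of replicate 1 (0.82, 0.138) or 2 (0.96, 0.113), and the 24 h Aa array of replicate 1 or control of replicate 2, without which the change stayed 1.05 with adjusted p = 0.0537 and 0.0517. It was also lost with no filter on low values (adjusted p = 0.0999 in limma) and without all arrays of replicate 1 (0.75, 0.331) or 2 (1.16, 0.0837).

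DUSP5, the nuclear ERK phosphatase, read 9.86, 9.40 and 10.11 in the 24 h controls and 9.56, 9.32 and 9.55 with Aa. At 48 h it read 9.33, 9.01 and 10.03 in controls and 10.00, 9.87 and 10.04 with Aa. The control of replicate 3 lay inside the Aa range at 48 h and the other controls below it. The change was -0.31 at 24 h (SE 0.24, adjusted p = 0.395 in limma) and 0.52 at 48 h (SE 0.24, adjusted p = 0.115), and neither was called. With the replicate block the 48 h change passed (adjusted p = 0.0203 in limma), as it did without the 48 h control of replicate 3, where it was 0.80 (adjusted p = 0.0116), and without all arrays of that number (0.77, 0.0388).

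DUSP6, the cytoplasmic ERK phosphatase and a commonly used readout of ERK activity, showed no called change. Its brightest probe set, 208891_at, read 12.99, 12.95 and 12.60 in the 24 h controls and 13.00, 13.05 and 12.24 with Aa. At 48 h the controls read 13.45, 13.41 and 13.16 and the Aa arrays 13.38, 13.36 and 12.97. In both conditions replicate 3 was the lowest, and Aa and control arrays overlapped at each time. The change was -0.09 at 24 h (95% confidence interval -0.56 to 0.39, adjusted p = 0.814 in limma) and -0.11 at 48 h (-0.58 to 0.37, adjusted p = 0.734). A fall to 0.67 times or a rise to 1.29 times the control level lay within the 48 h interval, which leaves out the replicate block. The SE was 0.21 at each time and 0.11 with the block, for which no interval was computed. The other probe sets, 208892_s_at and 208893_s_at, changed by -0.08 and -0.21 at 24 h and by -0.04 and -0.06 at 48 h, none of them called. Levels were higher at 48 h than at 24 h in control cells by 0.49 (SE 0.21) without overlap, and in Aa cells by 0.47 (SE 0.21), with adjusted p = 0.285 and 0.229 in limma. Both passed with the replicate block (adjusted p = 0.0161 and 0.0157 in limma).

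Among the Sprouty genes, SPRY2, whose product restrains receptor signalling to RAS, was lower with Aa. It read 8.63, 8.25 and 8.23 in the 24 h controls and 7.77, 7.37 and 7.55 with Aa, without overlap. At 48 h the controls read 8.61, 8.16 and 8.12 and the Aa arrays 8.19, 7.98 and 7.57, where 1 Aa array, replicate 1, lay within the control range. The level fell at 24 h by 0.81 on the log2 scale (SE 0.19, 1.75-fold lower, adjusted p = 0.0128 in limma), while the 48 h difference of -0.38 (SE 0.19) missed the threshold (adjusted p = 0.143). All 3 pairs of arrays with the same number were lower with Aa at both times, and with the replicate block the 48 h difference passed as well (adjusted p = 0.0119 in limma). Without the 24 h control of replicate 1 the 24 h change was -0.68 and missed the threshold (adjusted p = 0.0527 in limma), as it did without all arrays of replicate 2 (-0.77, 0.09) or 3 (-0.87, 0.07). SPRY2 has a single probe set here.

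SPRY1 was the member with the widest spread in controls. It read 5.36, 5.42 and 4.12 in the 24 h controls and 4.04, 4.08 and 4.13 with Aa, and at 48 h 7.25, 6.70 and 5.10 in controls and 5.18, 5.48 and 4.99 with Aa. The control of replicate 3 sat at the level of the Aa arrays at each time, and the other controls above all of them. The change was -0.89 at 24 h (SE 0.48, adjusted p = 0.22 in limma) and -1.13 at 48 h (SE 0.48, adjusted p = 0.0885), and neither was called. With the replicate block the 48 h change passed (adjusted p = 0.0275 in limma). Without the 48 h control of replicate 3 it was -1.76 (adjusted p = 0.00474 in limma), and without all arrays of replicate 3 the changes were -1.33 at 24 h and -1.65 at 48 h (adjusted p = 0.0183 and 0.0062). A second probe set, 230212_at, below the filter and not tested, read 3.13 to 3.64 in the 48 h controls and 2.32 to 2.59 on the other 9 arrays. In control cells SPRY1 was higher at 48 h than at 24 h by 1.39 (SE 0.48, adjusted p = 0.197 in limma; 0.0336 with the replicate block, and 0.0226 without the 48 h control of replicate 3).

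SPRY4, a further Sprouty gene with 1 probe set, read 4.82 to 5.78 in the 24 h controls and 4.18 to 5.73 with Aa, and 5.28 to 5.61 and 5.18 to 6.08 at 48 h. The groups overlapped at both times. The change was -0.17 (95% confidence interval -1.05 to 0.70) at 24 h and 0.38 (-0.49 to 1.25) at 48 h, with adjusted p = 0.798 and 0.485 in limma. A fall by 2-fold at 24 h and a rise by 2-fold at 48 h lay within these intervals, which leave out the replicate block. The SE was 0.39 at each time and 0.25 with the block, for which no interval was computed.

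SPRED1, whose product holds back the step from RAS to RAF, fell at 48 h. Its brightest probe set, 226837_at, read 7.50, 7.34 and 7.70 in the 24 h controls and 7.49, 7.41 and 6.96 with Aa. At 48 h the controls read 7.98, 8.10 and 7.87 and the Aa arrays 7.11, 7.28 and 6.94. On this probe set all Aa arrays lay below all controls at 48 h, while at 24 h only that of replicate 3 did. The change was -0.23 at 24 h (SE 0.16, adjusted p = 0.337 in limma), and at 48 h the level fell by 0.87 (SE 0.16, 1.83-fold lower, adjusted p = 0.00171). The probe set 235074_at fell by 0.48 at 48 h (SE 0.15, adjusted p = 0.0344 in limma over all probe sets). At 24 h its change was -0.21 (SE 0.15, adjusted p = 0.386 in the same limma fit), not called, though all Aa arrays lay below all controls. On all 3 SPRED1 probe sets, 1 of them below the filter, each of the 9 differences between arrays of the same number was negative at 48 h, from -1.03 to -0.30. The 48 h call of the gene held in all 24 alternative settings, with changes from -0.96 to -0.68 and adjusted p from 0.000909 to 0.0491 in limma. With adjustment over all probe sets it did not hold throughout: without all arrays of replicate 1, 0 of the 15 member probe sets were called at 48 h. The control mean was 7.51 ± 0.18 (SD, n = 3) at 24 h and 7.98 ± 0.11 at 48 h, a difference of 0.47 (SE 0.16) without overlap that was not called (adjusted p = 0.179 in limma), and the Aa mean went from 7.28 ± 0.29 to 7.11 ± 0.17.

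SPRED2, the close relative of SPRED1, showed no called change. Its brightest probe set, 212458_at, read 9.33 to 9.46 in the 24 h controls, 9.11 to 9.36 with Aa, 9.36 to 9.50 in the 48 h controls and 9.40 to 9.47 with Aa, so the groups overlapped at both times. The change was -0.14 (95% confidence interval -0.34 to 0.07) at 24 h and -0.02 (-0.22 to 0.19) at 48 h, the narrowest intervals among the members, with adjusted p = 0.331 and 0.899 in limma. A second probe set, 212466_at, changed by -0.07 and -0.03 (SE 0.30). SPRED1 and SPRED2 span 104 kb and 125 kb in the GRCh38.p14 annotation, more than 83.1% and 87.0% of the genes tested with a known span, whose median was 30.5 kb. The other members span 3.10 kb (DUSP1) to 40.7 kb (DUSP10), and SPRY2, which fell at 24 h, spans 5.15 kb.

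**Figure D3:**
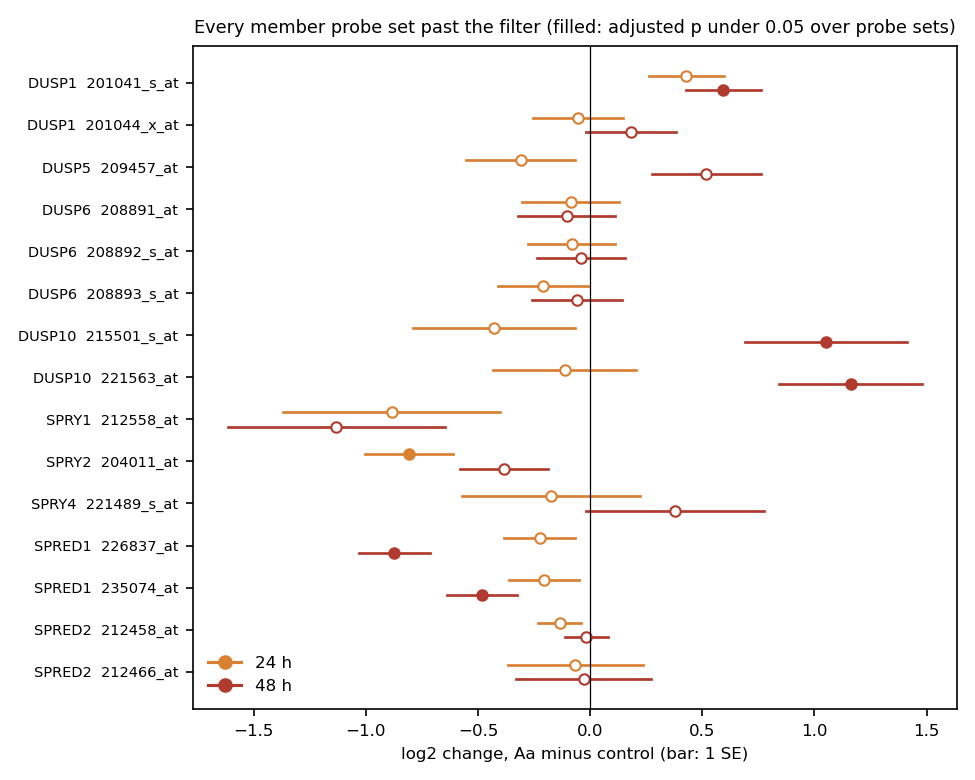
Log2 change with Aa (horizontal axis, bars 1 SE) of each of the 15 member probe sets past the filter, at 24 h and 48 h, with filled points where the adjusted p over all probe sets was under 0.05. The DUSP10 and SPRED1 pairs of probe sets are filled on the same side at 48 h, while of the DUSP1 pair only 1 is.

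Tested probe set by probe set, 1 of the 15 was called at 24 h, the SPRY2 one, where 22.3% of 19623 probe sets were, and 5 of 15 at 48 h, where 33.9% were (16.0% up, 17.9% down). The 5 were 1 of DUSP1 and 2 of DUSP10, which rose, and 2 of SPRED1, which fell. With the replicate block 2 of the 15 were called at 24 h and 8 at 48 h, where 39.7% and 51.1% of all probe sets were. The tested probe sets of DUSP10, SPRED1, DUSP6 and SPRED2 each moved the same way within the gene at each time, and only those of DUSP1 had opposite signs, at 24 h.

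The change of the Aa effect between the times was tested as the 48 h difference minus the 24 h difference. It was largest in DUSP10, at 1.48 (SE 0.51), in DUSP5, at 0.83 (SE 0.34), and, in the negative direction, in SPRED1, at -0.65 (SE 0.22), with adjusted p = 0.222, 0.298 and 0.219 in limma. None of the 9 member genes passed, and 0.825% of all genes were called in this test. At the looser threshold of an unadjusted p under 0.05 there were 3 members. The share of all genes at that threshold was not computed, so this count has no background. With the replicate block DUSP10 and DUSP5 passed (adjusted p = 0.0144 and 0.0461 in limma), against 11.0% of all genes. Adjusted over all probe sets with the block, the DUSP10 probe set 215501_s_at passed (adjusted p = 0.0185 in limma), while the other DUSP10 probe set, 221563_at, and that of DUSP5 did not (adjusted p = 0.0659 and 0.0543), so 1 of the 15 was called, against 8.43%. The calls of DUSP1, DUSP10 and SPRED1 at 48 h alone, and of SPRY2 at 24 h alone, are thus not shown to differ between the times in the fit without the block.

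Time by itself called none of the 9 member genes in limma, in control cells (0.500% of all genes called) or in Aa cells (5.50%). At an unadjusted p under 0.05 there were 3 members in controls and 1 in Aa cells. The share of all genes at that looser threshold was not computed. Arrays of the 2 times did not overlap for DUSP6 and SPRED1 in controls, both higher at 48 h, against 23.1% of all genes, and for DUSP5, SPRY1 and SPRED2 in Aa cells, all higher at 48 h, against 24.2%. With the block 3 members were called in controls, DUSP6 and SPRY1 higher and DUSP10 lower at 48 h, and 3 in Aa cells, DUSP6, DUSP10 and SPRY2, all higher at 48 h. The blocked backgrounds were 17.8% and 21.3% of all genes. Of the 15 member probe sets the block called 4 in controls and 5 in Aa cells, against 14.5% and 18.4% of all probe sets, among them 2 and 3 of the 3 DUSP6 probe sets.

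Across the 12 arrays the members did not move as 1 group. Pearson's r between members was highest for DUSP5 with DUSP10 and for DUSP6 with SPRY4, 0.82 each, and lowest for DUSP1 with SPRY2, -0.77. After subtracting group means r was 0.71 for the first of these pairs, 0.93 for the second and -0.63 for the third. The lowest r was then that of DUSP5 with SPRY1, -0.82, followed by DUSP6 with DUSP10, -0.81. These values, and those that follow, are descriptions over 12 arrays that share 4 groups and 3 replicate numbers. Each of those that follow is the highest r over all other genes tested. No background for such a maximum was computed, and a link between the genes was not tested. Among all other genes tested, those whose values followed a member most closely were UBR3 for SPRED1 (r = 0.97), IFITM1 for DUSP6 (0.96), CHST14 for SPRY2 (0.95), DNAJB11 for DUSP10 (0.94), PLAU, which encodes urokinase, for DUSP5 (0.94), PIGP for SPRY1 (0.93), DNAJC8 for DUSP1 (0.93), SYT13 for SPRY4 (0.93) and SCPEP1 for SPRED2 (0.92).

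Other genes of the pathway were read from lists chosen for their function. Their counts of called genes stand against the 23.1% of all genes called at 24 h and 37.8% at 48 h, or 41.3% and 54.8% with the replicate block. For counts at an unadjusted p no share of all genes was computed. Of 4 further MAP kinase phosphatases tested none was called at either time in limma, with 1 and 0 at an unadjusted p under 0.05. DUSP7 had the smallest p at 24 h, with a change of 0.31 (SE 0.14, adjusted p = 0.129; 0.0344 with the replicate block), and DUSP8 at 48 h, with 0.20 (SE 0.18, adjusted p = 0.406 in limma). Among 8 atypical dual-specificity phosphatases, which lack the kinase-binding domain of the others, 1 rose at 24 h, and 2 rose and 1 fell at 48 h. The block gave 3 up at 24 h and 4 up and 1 down at 48 h. DUSP14 rose at 48 h by 0.71 (SE 0.15, adjusted p = 0.00403 in limma). DUSP3 rose by 0.67 and 0.60 (SE 0.11) at 24 h and 48 h on its brightest probe set but read -0.046 and 0.19 on the mean of its probe sets, neither of them called. DUSP18 fell at 48 h by 0.69 (SE 0.24, adjusted p = 0.0434 in limma), a call lost in 14 of 23 alternative settings.

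In the list of 13 other inhibitors of receptors, RAS or ERK, 1 gene rose and 1 fell at 24 h, and 1 rose and 6 fell at 48 h, with medians of 0.03 and -0.10. The block gave 2 up and 2 down at 24 h and 4 up and 6 down at 48 h. CBLB, a ubiquitin ligase gene, fell by 1.61 (SE 0.25, adjusted p = 0.00089 in limma) and RASAL2, which encodes a RAS GTPase activating protein, by 1.05 (SE 0.16, adjusted p = 0.000644) at 48 h. RASAL2 had fallen by 0.58 (SE 0.16, adjusted p = 0.0213) at 24 h, a call lost in 7 of 24 alternative settings. RASA2, of the same enzyme class, fell at 48 h by 0.44 (SE 0.12, adjusted p = 0.0175 in limma), a call lost in 7 of 24 alternative settings. Over these settings the RASA2 change ran from -0.55 to -0.09, with adjusted p up to 0.661 in limma. SPRED3, the remaining SPRED gene, rose at 24 h by 0.66 (SE 0.19, adjusted p = 0.0303 in limma; lost in 7 of 24). PPP2CA, a catalytic subunit of protein phosphatase 2A, rose at 48 h by 0.37 (SE 0.08, adjusted p = 0.00506 in limma) on its brightest probe set and read -0.15 on the mean of its probe sets.

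Of 15 genes of the ERK cascade itself none was called at 24 h in limma, with 2 at an unadjusted p under 0.05, and 2 fell at 48 h. The block gave 1 up and 4 down at 24 h and 2 up and 5 down at 48 h. EGFR, which encodes the EGF receptor, read -0.29 (SE 0.13, adjusted p = 0.13 in limma) at 24 h and fell by 0.51 (SE 0.13, adjusted p = 0.00981) at 48 h. SOS1, an activator of RAS, fell at 48 h by 0.61 (SE 0.21, adjusted p = 0.0436 in limma), a call lost in 15 of 24 alternative settings.

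Genes whose transcription ERK is known to raise moved in both directions. Of 20 tested, 1 rose and 4 fell at 24 h, while 9 rose and 3 fell at 48 h. The block gave 3 up and 7 down at 24 h and 12 up and 5 down at 48 h. The median change was -0.33 at 24 h and 0.66 at 48 h, against -0.02 and 0.00 over all genes. In the test of the Aa effect between the times 0 of the 20 were called in limma, against 0.825% of all genes. With the replicate block 9 were called, all up, against 11.0%. At 24 h the transcription factor genes EGR1 and ELK3 fell by 1.40 (SE 0.25, adjusted p = 0.00305 in limma) and 0.99 (SE 0.18, adjusted p = 0.0030), and MYC by 0.56 (SE 0.14, adjusted p = 0.0143). PHLDA1 fell by 0.65 (SE 0.11, adjusted p = 0.0023 in limma) on its brightest probe set and read -0.05 on the mean of its probe sets. At 48 h HBEGF, which encodes a ligand of the EGF receptor, rose by 2.98 (SE 0.43, adjusted p = 0.000527 in limma), and the immediate early genes IER2 and IER3 by 0.91 (SE 0.17, adjusted p = 0.00228) and 0.81 (SE 0.14, adjusted p = 0.00143). IER2 had also risen at 24 h, by 0.57 (SE 0.17, adjusted p = 0.0353 in limma), while IER3 read 0.01 (SE 0.14) at that time and was not called. The HBEGF mean was 7.50 at 24 h and 6.38 at 48 h in controls, and 8.13 and 9.36 with Aa. MYC fell at 48 h by 0.99 (SE 0.14, adjusted p = 0.000442 in limma). EGR1 and ELK3 were also called lower at 48 h, by 0.84 (SE 0.25, adjusted p = 0.0229 in limma) and 0.59 (SE 0.18, adjusted p = 0.0226). The other genes of the list called at 48 h were FOS, FOSL1, CCND1, EPHA2, MAFF and JUNB. They rose by 0.65 (JUNB) to 1.89 (FOSL1), with adjusted p from 0.00276 to 0.0467 in limma.

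Of 11 genes of the JNK and p38 pathway, the substrates of DUSP1 and DUSP10 and the kinases around them, 1 rose and 3 fell at 24 h, and 2 rose and 3 fell at 48 h. The block gave 2 up and 3 down at 24 h and 3 up and 4 down at 48 h. MAP2K6, which encodes a kinase that activates p38, fell by 1.15 (SE 0.27) and 1.75 (SE 0.27) at 24 h and 48 h, with adjusted p = 0.011 and 0.000721 in limma. MAPK13, a p38 gene, fell by 1.09 (SE 0.18) and 1.00 (SE 0.18), with adjusted p = 0.0018 and 0.00162 in limma. MAP3K1, a kinase gene upstream of JNK, rose by 0.81 (SE 0.12) and 0.75 (SE 0.12), with adjusted p = 0.00145 and 0.00121 in limma. MAP3K5, another such gene, fell at 24 h by 0.60 (SE 0.16, adjusted p = 0.0213 in limma; lost in 9 of 24 alternative settings), and MAPKAPK3, a substrate of p38, rose at 48 h by 0.78 (SE 0.19, adjusted p = 0.0101).

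**Figure D4:**
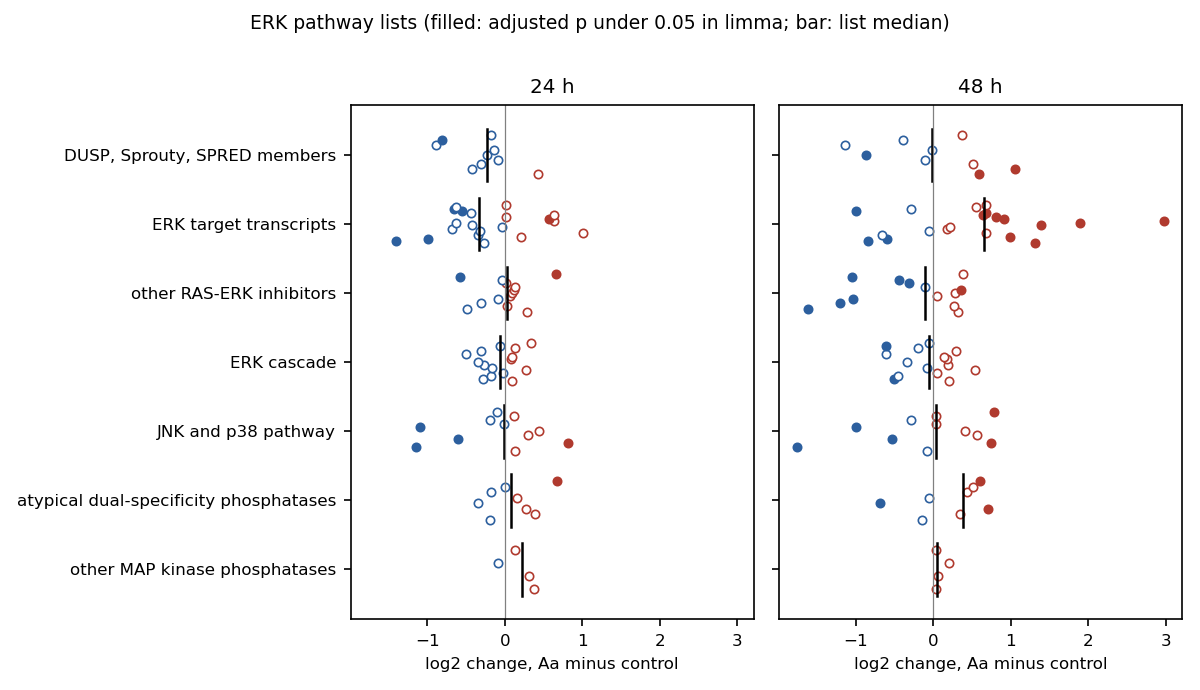
Log2 change with Aa (horizontal axes) at 24 h and 48 h of the members and of the genes of 6 pathway lists (1 point a gene, filled where the adjusted p was under 0.05, bar at the list median). The bar of the ERK target transcripts lies at -0.33 at 24 h and at 0.66 at 48 h, and that of the members at -0.23 and -0.02.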

How the data were processed

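RNA of HK-2 cells was measured on 12 arrays, 3 in each of 4 groups. The deposited values are log2 intensities, normalised by the authors with GCRMA per the submitters' processing notes (version not stated). They run from 0.82 to 16.25, with array medians of 2.93 to 3.01. The number of arrays limits the precision. Of 54675 probe sets, 41097 had 1 gene symbol in the platform annotation, 1801 several and 11777 none. For 41043 of the 41097 the gene identifier was found in the GRCh38.p14 annotation. These probe sets took the symbol given there, whether or not it differed, and 54 kept their own. Control probe sets stayed out of the tests.

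A model of 4 group means was fitted with limma 3.58.1 in R 4.3.3 (lmFit, eBayes, 8 residual and 2.76 prior degrees of freedom), two-sided, with Benjamini-Hochberg adjustment over 10791 genes or 19623 probe sets. Its code was run on simulated data with independent noise between arrays and no replicate effect. These arrays do show a pairing by replicate number, so that run says nothing on how the model behaves with it. Intervals are 95% intervals of this model. Named were all members, per list and time up to 4 called genes of smallest p (else the gene of smallest p), and the gene most correlated with each member. Of the ERK target transcripts all called genes were named. Members, lists and tests were chosen with earlier results of these data known.

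Deviations from group means correlated at r of 0.35 to 0.62 in the 18 same-numbered pairs of arrays and of -0.49 to -0.01 in the 36 other pairs across groups. Subtracting group means pushes the other pairs to negative r once the same-numbered ones are positive. The 2 ranges are therefore not separate results. Each of the 12 arrays lay nearest to an array of its own number, so the number was taken as a pairing and used as a block in an alternative. The other alternatives were no filter, a filter at 6, quantile normalisation, median centring, eBayes with trend and robust, no probe sets marked as shared (ending in _s_at, _x_at or _a_at), the mean of probe sets, only the 2 groups compared, and leaving out each array or replicate number.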

Additional observations from a re-analysis of the deposited data

Results flagged for a closer look

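On the brightest probe sets of 2 member genes every pair of arrays with the same replicate number was lower with Aa at 24 h and higher at 48 h. In 6.13% of all genes tested the 3 pairs moved one way at 24 h and the opposite way at 48 h. DUSP10 (215501_s_at) differed by -0.85 to -0.06 within the 24 h pairs and by 0.67 to 1.65 within the 48 h pairs, a change of the effect of 1.48 (SE 0.51, adjusted p = 0.222 in limma, 0.0144 with the replicate block). Its other tested probe set, 221563_at, was higher with Aa by 0.57 in the 24 h pair of replicate 1, and its change of the effect was 1.28 (SE 0.45, adjusted p = 0.269 in limma over all probe sets, 0.0659 with the block). DUSP5 differed by -0.56 to -0.08 at 24 h and by 0.02 to 0.86 at 48 h, a change of the effect of 0.83 (SE 0.34, adjusted p = 0.298 in limma, 0.0461 with the replicate block, and 0.0543 with it over all probe sets). Groups of 3 arrays are too small to test whether a single array is an outlier. How the member calls shifted when single arrays were left out is given with the genes above.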

How the results depend on the processing

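Of 212 alternative values of member changes at 24 h, 205 kept the side of the threshold, 4 gained a call and 3 lost it. Of 212 at 48 h, 191 kept it, 7 gained and 14 lost one. With the replicate block the member genes called were 2 at 24 h, 6 at 48 h, 2 for the change between times and 3 for time in either condition, and the member probe sets 2 at 24 h, 8 at 48 h, 1 for the change between times, 4 for time in controls and 5 for time in Aa cells. It changed no other call of a member gene. All genes called were then 4457 at 24 h (2494 without it), 1183 for the change between times (89), 1919 for time in controls (54) and 2303 for time in Aa cells (594). Quantile normalisation called 2 member genes at 24 h. At 48 h 3 member probe sets were called with no filter and 3 without shared-sequence probe sets. For the change between times 57 genes were called after median centring and 48 without shared-sequence probe sets. Time in controls called 94 with trend and robust and 0 with the 2 groups only, where time in Aa cells called 11. The list gene DUSP3 read -0.046 at 24 h and PPP2CA -0.15 at 48 h on the mean of probe sets, against rises on the brightest. Leaving out arrays gave 0 to 2 member genes at 24 h, 1 to 5 at 48 h, 0 to 1 for time in controls and 0 for the change between times and for time in Aa cells, and 0 to 2 and 0 to 7 member probe sets. All genes called ranged over 536 to 2628 at 24 h, 1549 to 4146 at 48 h, 0 to 255 for the change between times, 1 to 361 for time in controls and 3 to 716 for time in Aa cells. The causes of these shifts were not tested.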
